A study of Drosophila melanogaster with 13 samples.

Results

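CG9029, Acp32CD, CG13965, mfas and CG14913 are 5 of the 16727 genes counted in secondary cells of the Drosophila male accessory gland. They were chosen by their level in sorted wild-type cells, where CG9029, Acp32CD, CG13965 and mfas ranked 1, 2, 6 and 7 of all genes by mean count, and CG14913, which ranked 36, was added because it lies next to Acp32CD on chromosome arm 2L. The level in wild-type cells is therefore a description and was not tested. The genes were also listed with earlier results of these data in view, those for the mutants included. The tests of the mutants and of the ribosome IPs (immunoprecipitations) below are therefore not independent evidence that these genes respond or are enriched.

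The male accessory gland makes most of the seminal fluid, the mixture of proteins that travels with the sperm and alters the behaviour and physiology of the mated female. Its epithelium consists mainly of main cells, with a smaller number of large, vacuole-filled secondary cells at the distal tip. A secreted protein enters the endoplasmic reticulum through a signal peptide while it is translated, which places its mRNA on membrane-bound ribosomes, and then passes through the Golgi and, in secondary cells, through large secretory compartments. Acp32CD is a seminal fluid protein that passes to the female at mating. The product of mfas (midline fasciclin) belongs to the fasciclin family of extracellular adhesion proteins. No role is given here for CG9029, CG13965 or CG14913, and counts of RNA do not show whether a product is secreted.

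RNA came from males aged 5 to 11 days, and every group carried the driver D1:GAL4, which turns on a UAS transgene in secondary cells. GFP-positive cells were sorted from 3 genotypes with 3 biological replicates each, namely D1:GAL4, UAS-GFP alone (wild type), the same with the mutation iab-6cocuD1 (D1, which shares its name with the driver), and the same with a deletion of the micropeptide MSAmiP (miP). Ribosome-bound RNA was precipitated with anti-GFP antibody from UAS GFP-RPL10Ab, D1:GAL4 males in 3 libraries. For background, 1 control library came from an anti-GFP precipitation of males with UAS GFP, D1:GAL4, which has no tagged ribosomal protein. The labels name no cell sort for these 4. Whether a replicate was a pool of animals is not given in the sources used here, so p-values measure the spread between these libraries.

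Counted reads came to between 18209428 and 26088798 in the 9 sorted libraries, between 11175963 and 21400681 in the ribosome immunoprecipitations (IPs) and to 3701155 in the control IP. The homeotic gene abd-A, a marker of secondary cells that lies in the gene complex hit by iab-6cocuD1, was at a mean of 196 CPM (counts scaled to a library total of 1e6) in wild type, 0.0471 in D1 and 271 in miP. Other secondary cell factors went both ways. From wild type to D1, mean CPM went from 840 to 74.1 for iab-8 and from 400 to 322 for Rab19. It went from 106 to 142 for Abd-B, 568 to 1035 for dve and 0.207 to 3.33 for dpp. All 6 summed to 2005 to 2280 CPM in wild type, 2075 to 2558 in miP and 808, 1886 and 2034 in D1. In the ribosome IPs they summed to 179 to 423 and in the control to 91.1. No gene row in the counts table checks the MSAmiP deletion. The summed level of 20 main cell markers, Acp and Mst57D genes among them, was 92.9 to 1116 CPM in wild type, 576 to 1979 in D1 and 166 to 763 in miP, against 19253 to 29807 in the ribosome IPs and 45298 in the control. Testis markers (15 genes, up to 11 of them at 0 in a sorted library) summed to at most 7.40 CPM in the sorted libraries, 11421 to 12389 in the ribosome IPs and 18923 in the control. Ejaculatory duct markers (6 genes) summed to at most 22.6 CPM in sorted libraries, 1986 to 2535 in the ribosome IPs and 7237 in the control, and muscle markers (11 genes) to at most 62.2, 353 to 723 and 678. Blood cell and fat body markers (8 genes, all at 0 in 1 or more miP libraries) summed to at most 2.67 CPM in sorted libraries and to 69.5 to 80.5 and 81.9 in the IPs and the control.

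In 2 of the groups replicate 1 stood apart, and results that rest on those libraries are given with and without them. In replicate 1 of D1 the log2 CPM of genes with an exonic length under 750 nt lay at a median of 1.18 above the mean of replicates 2 and 3, while that of genes of 3000 nt or more lay at -1.66. In replicate 1 of miP the same medians were 0.54 and -0.61, and in wild type -0.02 and 0.16. Of the 5 genes, the 2 shortest were higher and the longest lower in replicate 1 of both mutants than in the other replicates. In D1 the difference of replicate 1 was 1.46 for CG9029 (561 nt) and 0.94 for CG13965 (535 nt), -0.14 for Acp32CD (886 nt), -0.65 for CG14913 (1716 nt) and -2.18 for mfas (3518 nt). In miP it was 0.88 and 0.69 for the short pair, -0.33 for Acp32CD, -0.03 for CG14913 and -0.51 for mfas, and in wild type no member differed by more than 0.16 in size. Ribosome IP replicate 1 differed in another way: all 5 genes were lower there than in replicates 2 and 3, from -0.41 for CG9029 to -2.45 for Acp32CD, while genes of all lengths together had a median of -0.13. This was not particular to the 5 genes. The secondary cell factors summed to 179 CPM in that replicate, against 404 and 423 in the others. Main cell markers were highest there, at 29807 against 24160 and 19253. What set these libraries apart was not tested.

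**Figure D1:**
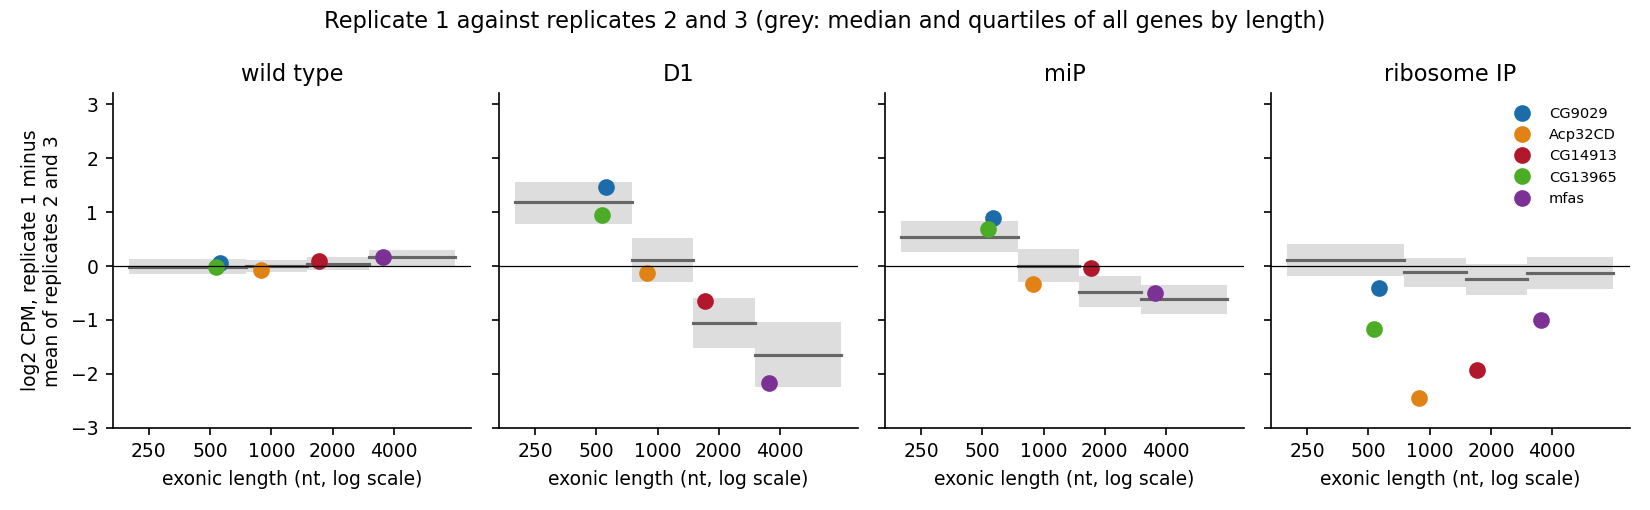
Difference in log2 CPM between replicate 1 and the mean of replicates 2 and 3 (y axis) against exonic length on a log scale (x axis) in the 4 groups with replicates. Coloured points are the 5 genes, and grey lines and boxes are the median and quartiles of all genes of at least 10 CPM in 4 length classes; in D1 the points run from 1.46 for CG9029 down to -2.18 for mfas.

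The genes are compact except for mfas, and 4 of the 5 lie on chromosome arm 2L (dm6). CG9029 (FBgn0031746, plus strand) spans 5886002 to 5886609 and encodes proteins of 116 and 122 residues from 2 transcripts. Acp32CD (FBgn0023415, plus strand) spans 11015620 to 11016571 and encodes 252 residues, and CG14913 (FBgn0032331) starts 423 nt beyond its end on the same strand, spans 11016995 to 11018778 and encodes 499 residues. Both lie inside Samuel, a gene on the opposite strand that shares 0 exonic nt with either. CG13965 (FBgn0032834, minus strand) spans 19961758 to 19962352 and encodes 133 residues. The gene mfas (FBgn0260745, minus strand) spans 11984862 to 11993315 on 3R and has 16 transcripts, which encode 796 to 905 residues. Library preparation kept no strand information, so reads from a gene and from an unspliced antisense transcript of Samuel cannot be told apart.

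CG9029, Acp32CD, CG13965, mfas and CG14913 together took 49.5, 48.1 and 49.3% of all counts in the 3 wild-type libraries (49.0% ± 0.785, SD, n = 3). Their D1 shares were 49.4, 27.3 and 26.5%, and their miP shares 49.2, 38.0 and 38.0%. Replicate 1 of each mutant was at the wild-type level, and replicates 2 and 3 of each were below it. In the ribosome IPs the share was 8.59, 15.4 and 13.6%, and in the control IP 0.944%, so the sorted libraries and the IPs did not overlap. CG9029 held the largest part in every library but miP replicate 2, where Acp32CD did.

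**Figure D2:**
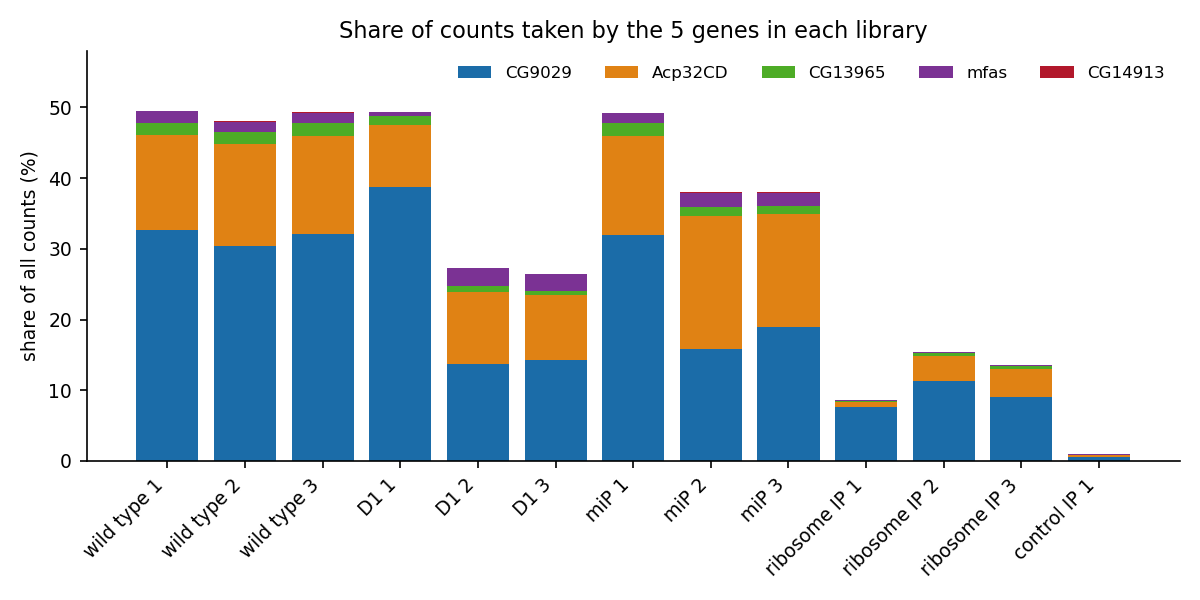
Share of all counts (y axis, %) taken by each of the 5 genes, stacked, in every library (x axis). The stacks reach 48.1 to 49.5% in wild type and in replicate 1 of both mutants they come to 49.4 and 49.2%, while D1 replicates 2 and 3 come to 27.3 and 26.5% and the control IP to 0.944%.

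Per length, the order of the 5 genes was the same in all 13 libraries. In wild-type cells CG9029 reached 565287 ± 20446 CPM per kb of exon (SD, n = 3), Acp32CD 156773 ± 5635, CG13965 32534 ± 832, mfas 4371 ± 295 and CG14913 410 ± 14.2. Each neighbouring pair in this order differed by far more than the spread of the wild-type libraries. In the ribosome IPs the order by mean was the same, at 165265, 30865, 7690, 368 and 16.5 CPM per kb, but the SD of Acp32CD (20113) was nearly as large as its distance to CG13965. In D1 mfas (5196 ± 3160) was below CG13965 (17388 ± 7204), and CG14913 stood at 42.0 ± 10.1 CPM per kb.

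CG9029, of unknown function, took 32.7, 30.4 and 32.0% of the counts in wild type, which makes it the most abundant transcript there. The D1 libraries gave 38.7, 13.8 and 14.3%, and the miP libraries 32.0, 15.8 and 18.9%. D1 replicate 1 was above the wild-type range and miP replicate 1 within it, and replicates 2 and 3 of both mutants were below it. In the ribosome IPs it took 7.60, 11.2 and 8.98%, and in the control 0.594% (exact 95% binomial interval 0.586 to 0.602%, counting error only). It was the top gene in every library but miP replicate 2, where Acp32CD was above it, and the control, where it ranked 5.

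Acp32CD took 13.4, 14.4 and 13.9% of the counts in wild type. The D1 libraries gave 8.76, 10.2 and 9.09%, all below wild type, and the miP libraries 13.9, 18.9 and 16.1%. The ribosome IPs held 0.689, 3.56 and 3.95% and the control 0.277% (0.271 to 0.282%). Replicate 1 of the ribosome IPs was the low one, 5.45-fold under the mean of the other two, yet above the control.

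CG14913, the neighbour of Acp32CD and also of unknown function, was far less abundant. Wild-type libraries gave 731, 691 and 687 CPM, D1 libraries 52.0, 81.8 and 82.4, and miP libraries 774, 766 and 814. The D1 libraries were all far below the other sorted libraries, and the miP libraries were all slightly above wild type on this unscaled measure. With library totals alone, its log2 fold change in miP against wild type was 0.16, below the median of 0.22 over all genes tested. How many of all genes were higher in miP without overlap was not counted. The ribosome IPs held 9.22, 32.7 and 43.2 CPM and the control 6.75, from 25 counts. All 3 ribosome IPs were above the control, replicate 1 narrowly, since the exact 95% interval of the control alone ran from 4.37 to 9.97.

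CG13965, the other short gene of unknown function, took 1.72, 1.71 and 1.79% of the counts in wild type. The D1 libraries gave 1.37, 0.783 and 0.640% and the miP libraries 1.84, 1.26 and 1.02%. All D1 libraries were below all wild-type libraries, with replicate 1 the nearest, and miP replicate 1 was above wild type while the other two were below. The ribosome IPs held 0.225, 0.466 and 0.543% and the control 0.0340%.

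The adhesion protein gene mfas took 1.66, 1.47 and 1.49% of the counts in wild type. The D1 libraries gave 0.546, 2.53 and 2.41%, and the miP libraries 1.39, 1.98 and 1.96%. In each mutant replicate 1 was below wild type and replicates 2 and 3 above, the reverse of CG9029 and CG13965. The ribosome IPs held 0.0777, 0.159 and 0.152% and the control 0.0388%.

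**Figure D3:**
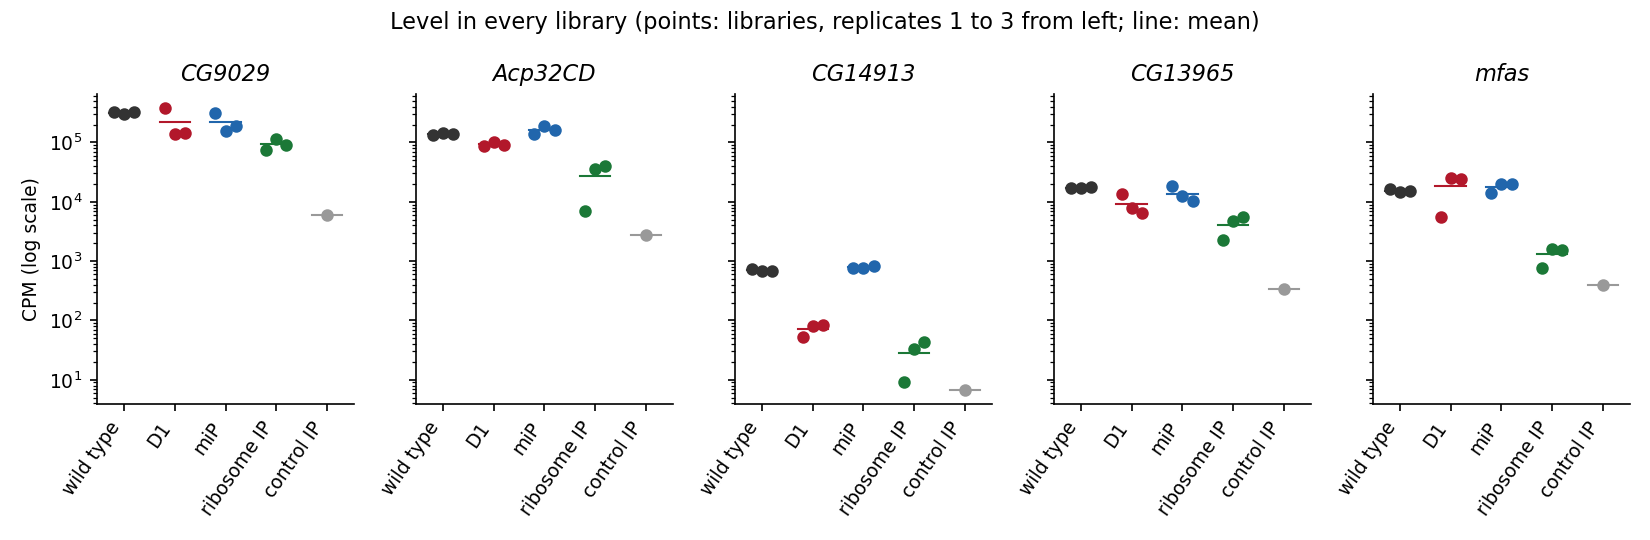
Level of each of the 5 genes (y axis, CPM, log scale) in the 5 groups (x axis); points are libraries in the order of their replicate numbers and lines are group means. CG14913 is at 52.0 to 82.4 CPM in D1 against 687 to 731 in wild type, and CG9029 and mfas show D1 replicate 1 apart from the other two in opposite directions.

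Sorted D1 cells were compared with wild-type cells to see what the iab-6cocuD1 mutation changed, in 1 edgeR quasi-likelihood fit of the 9 sorted libraries. CG14913 fell most, from a normalised level of 863 ± 15.0 CPM in wild type to 54.5 ± 2.74 in D1 (SD, n = 3 each). Its log2 fold change was -3.99 ± 0.21 (SE, 95% interval -4.46 to -3.51), a 15.8-fold lower level (adjusted p = 9.95e-06). Acp32CD, which starts upstream of it on the same strand, fell by 1.21 ± 0.25 on the log2 scale (95% interval -1.78 to -0.65, adjusted p = 0.0136), from 170664 ± 8588 to 73715 ± 20482 normalised CPM. These were the 2 of 5 genes called, both lower, where 3.62% of the 8222 genes tested were called lower. Before scaling, all D1 libraries were below all wild-type libraries for Acp32CD, CG14913 and CG13965, 3 of 5 genes, against 3.59% of the genes tested.

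The other 3 genes did not pass the threshold. CG13965 had a log2 fold change of -1.40 ± 0.49 (95% interval -2.50 to -0.30, adjusted p = 0.114), CG9029 -0.94 ± 0.60 (-2.28 to 0.40, adjusted p = 0.412) and mfas -0.58 ± 0.33 (-1.32 to 0.17, adjusted p = 0.358). These intervals leave room for changes as large as that of Acp32CD. The median over the 5 genes was -1.21, beside 0.004 over all genes tested. At an unadjusted p under 0.05 there were 3 of the 5 genes and 1848 of all genes.

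The short genes changed most with D1 replicate 1. Without it the log2 fold change of CG9029 was -2.11 (adjusted p = 0.00218) and that of CG13965 -2.22 (0.000988), so that 4 of 5 genes were called, with Acp32CD at -1.46 (0.000149), CG14913 at -4.03 (8.63e-07) and mfas at -0.25 (0.238). Calls over all genes rose in that fit too, to 1001 lower and 1093 higher of 8607 genes. With all 3 D1 libraries CG13965 passed the threshold with DESeq2 (-1.34, adjusted p = 0.0481) and with a replicate block (-1.69, 0.0235). The call of CG14913 held in all 17 alternative settings tried. That of Acp32CD held in 11 of 17 and ended when any single wild-type library was left out (adjusted p 0.0503 to 0.0636), when D1 replicate 2 was (0.0545), with only D1 and wild type in the fit (0.0538) and with all 13 libraries in it (0.207). The scaling factors were 0.798 to 0.832 in wild type and 0.905, 1.52 and 1.58 in D1. With library totals alone the median of all genes moved to 0.70, the log2 fold change of Acp32CD to -0.57 (adjusted p = 0.0386), that of CG14913 to -3.29 and that of mfas to 0.25. In bulk samples such as these, fewer cells of a type and less RNA per cell cannot be told apart.

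**Figure D4:**
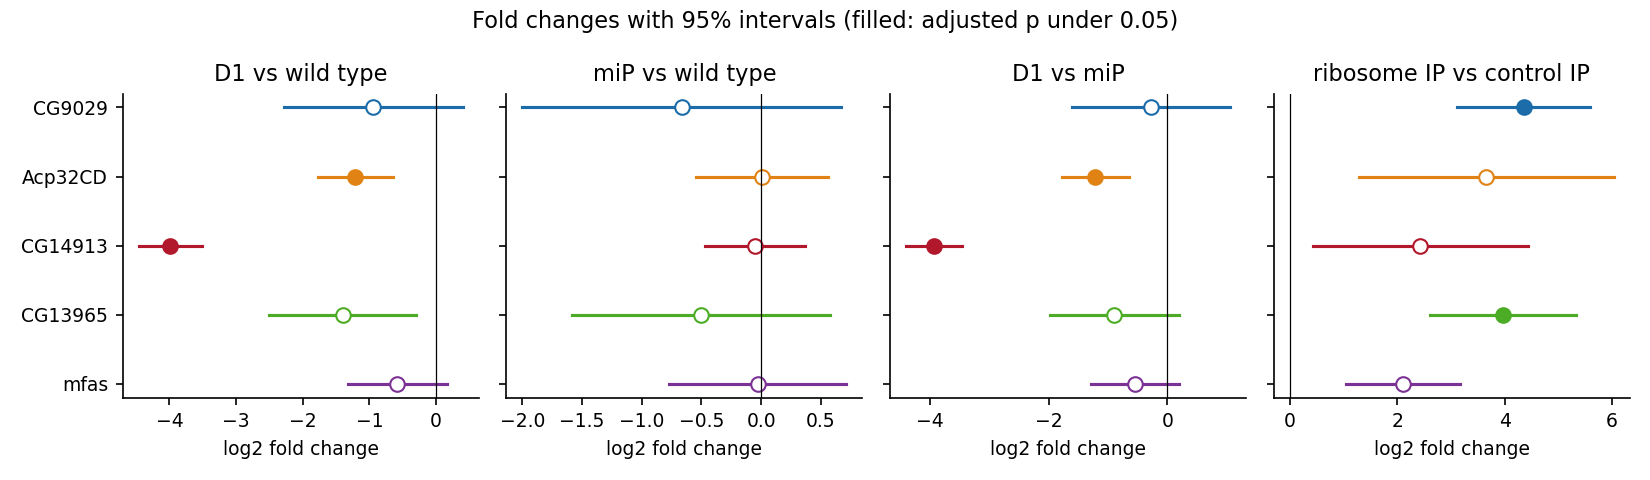
Log2 fold change (x axis) of each of the 5 genes (y axis) in the 4 comparisons tested, with 95% intervals from the edgeR fits; filled points have an adjusted p under 0.05. CG14913 is at -3.99 in D1 against wild type and -3.94 in D1 against miP, and no point is filled for miP against wild type.

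Sorted miP cells were compared with wild-type cells to see what the loss of the micropeptide changed. None of the 5 genes passed the threshold in the edgeR test, where 0.0851% of the 8222 genes were called in either direction. The 5 genes had no unadjusted p under 0.05 either, against 292 of all genes, and DESeq2 called none of the 5. The log2 fold changes were 0.01 ± 0.25 for Acp32CD (95% interval -0.55 to 0.56), -0.05 ± 0.19 for CG14913 (-0.47 to 0.37), -0.03 ± 0.33 for mfas (-0.77 to 0.71), -0.51 ± 0.49 for CG13965 (-1.59 to 0.58) and -0.67 ± 0.60 for CG9029 (-2.00 to 0.67), each with an adjusted p of at least 0.940. The signs of Acp32CD, CG14913 and mfas turned under other scalings or with a library left out. Their median was -0.05, beside -0.01 for all genes. Without replicate 1 of miP the fold changes of CG9029 and CG13965 were -1.22 and -0.96 (adjusted p = 0.677 for both). With replicate 1 of D1 left out of the fit as well, both were called (adjusted p = 0.000706 and 0.00431). Calls over all genes rose in that fit too, to 361 higher and 632 lower of 8536 genes.

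D1 was also compared with miP directly, with the same 3 D1 libraries as above, so this comparison is not independent of the one with wild type. CG14913 was lower in D1 by 3.94 ± 0.21 on the log2 scale (log2 fold change -3.94, 95% interval -4.41 to -3.46, adjusted p = 1.03e-05). Acp32CD had a log2 fold change of -1.22 ± 0.25 (-1.78 to -0.65, adjusted p = 0.0131). These 2 of 5 genes were called lower, where 3.81% of the 8222 genes were, and the same 2 had all D1 libraries below all miP libraries before scaling, where 3.78% of genes did. CG13965 (-0.89 ± 0.49, adjusted p = 0.309), mfas (-0.55 ± 0.33, 0.371) and CG9029 (-0.27 ± 0.60, 0.850) did not pass. Without D1 replicate 1, CG9029 (-1.44, adjusted p = 0.0164) and CG13965 (-1.71, 0.00434) were called too, in a fit that called 614 of 8607 genes lower and 907 higher. Acp32CD lost its call without miP replicate 2 (0.0572), with only D1 and miP in the fit (0.0737) and with all 13 libraries in it (0.193). The members' median was -0.89, beside 0.04 for all genes, and 2 of the 5 and 2030 of all genes had an unadjusted p under 0.05.

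Ratios between genes within a library do not depend on scaling. Wild-type libraries had 0.481 to 0.547 CG14913 counts per 100 Acp32CD counts, miP libraries 0.405 to 0.556 and D1 libraries 0.0594 to 0.0907. D1 thus had fewer CG14913 counts than the 6 other sorted libraries even against its neighbour, which fell itself. The ribosome IPs had 0.0917 to 0.134, below wild type, and the control 0.244. CG9029 counts per Acp32CD count ranged from 2.12 to 2.44 in wild type, from 1.35 to 4.42 in D1 and from 0.833 to 2.30 in miP, with replicate 1 highest in each mutant. CG9029 and CG13965, the pair of similar length, kept a narrower ratio: 17.8 to 18.9 in wild type, 17.6 to 28.3 in D1, 12.5 to 18.6 in miP and 16.5 to 33.7 in the ribosome IPs.

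**Figure D5:**
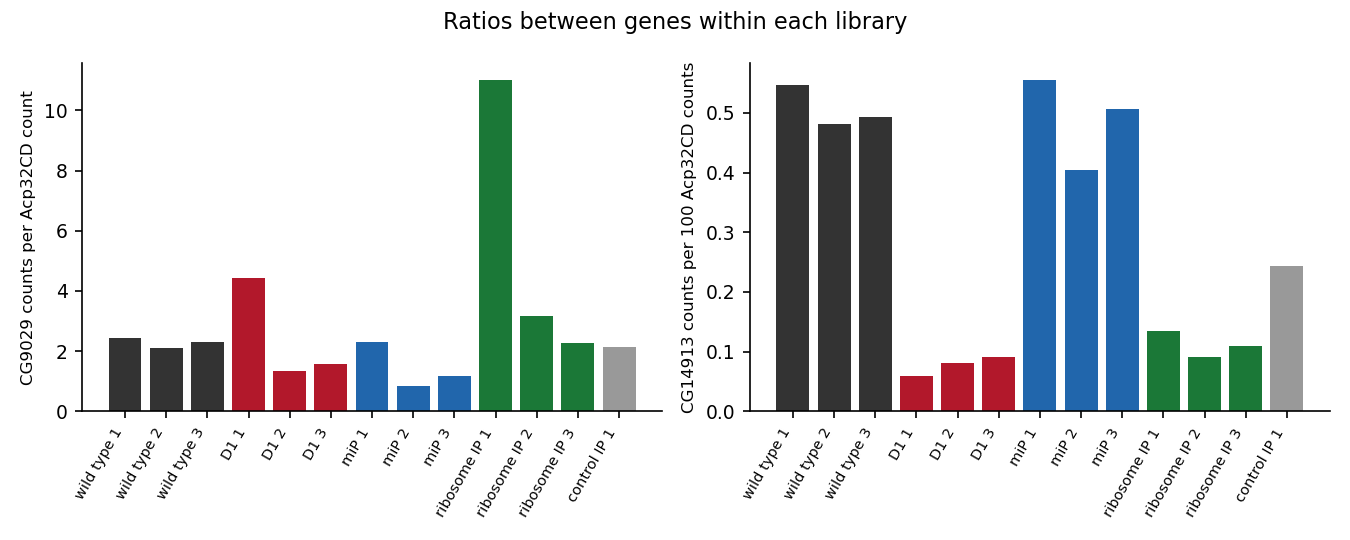
Counts of CG9029 per Acp32CD count (left) and of CG14913 per 100 Acp32CD counts (right), in each library (x axis). On the right the D1 bars reach at most 0.0907 against at least 0.481 in wild type, and on the left ribosome IP replicate 1 stands out at 11.0.

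The ribosome IPs were compared with the control IP to see which transcripts the tagged ribosomal protein brought down. CG9029 was 20.4-fold higher (log2 fold change 4.35 ± 0.53, 95% interval 3.11 to 5.60, adjusted p = 0.0216), with normalised levels of 99027 ± 18864 CPM in the IPs (SD, n = 3) and 4850 in the control. CG13965 was 15.6-fold higher (3.96 ± 0.58, 2.61 to 5.32, adjusted p = 0.0237), at 4333 ± 1545 CPM against 278. These 2 of 5 genes were called, where 3.25% of the 12723 genes tested were called higher. The genes other than CG14913 were chosen for a high level in sorted secondary cells, where the driver turns on the tagged protein. All genes tested are therefore not a like background for them. Acp32CD (3.66 ± 1.01, adjusted p = 0.103), CG14913 (2.43 ± 0.85, 0.175) and mfas (2.11 ± 0.45, 0.0548) did not pass. Before scaling, all 3 IPs were above the lone control for each of the 5, but how many of all genes were so was not counted. The median over the 5 was 3.66, beside 0.11 over all genes, and an unadjusted p under 0.05 was found for all 5 and for 2565 of all genes.

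With 1 control the test assumes that it varies like the IPs. Without ribosome IP replicate 1 the calls over all genes rose to 1433 higher and 481 lower of 12601. Without replicate 3 they nearly vanished, at 1 higher and 0 lower of 12289. The changes of call below are therefore not particular to these 5 genes. Without ribosome IP replicate 1, in which the 5 genes were low, all 5 were called (log2 fold changes 2.34 to 4.44, adjusted p at most 3.50e-05). Without replicate 3 none was, and their adjusted p then lay between 0.0510 and 0.318. Main cell, testis and duct markers were higher in the control than in the IPs, as given above, and their part in these fold changes was not tested. Within the control, the ratio of CG9029 to Acp32CD counts was 2.14, inside the range of the sorted wild-type libraries, as was that of Acp32CD to CG13965 (8.14, against 7.76 to 8.42). All other pairs of the 5 genes lay outside the wild-type range, CG9029 to CG13965 narrowly (17.5, against 17.8 to 18.9). The ratio of Acp32CD to mfas was 7.13, against 8.07 to 9.80 in wild type. For CG9029 to mfas it was 15.3, against 19.7 to 21.5, and for CG9029 to CG14913 879, against 440 to 466.

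Against sorted wild-type cells the ribosome IPs are given as values, with no test, because the level in those cells chose the genes. The mean level in wild type was 3.42 times that in the IPs for CG9029, 4.23 times for CG13965, 5.08 times for Acp32CD, 11.9 times for mfas and 24.8 times for CG14913. The 2 short transcripts thus had the smallest ratios, and the 2 longest the largest. CG9029 counts per mfas count were 19.7 to 21.5 in wild type and 59.2 to 97.8 in the ribosome IPs, without overlap. Cell sorting, the precipitation and the cells present all differ between these libraries and cannot be told apart here.

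Genes next to the 5 were followed in the same fits. CG43185, which ends 510 nt before CG9029 on the same strand, was at 2434, 2483 and 2304 CPM in wild type and at 679, 163 and 157 in D1, far below. Its log2 fold change was -3.21 ± 0.79 (adjusted p = 0.0303), and -4.84 without D1 replicate 1 (8.09e-05). The call was lost without any other library of the 2 groups (adjusted p 0.0713 to 0.0870) and with only these groups in the fit (0.0560). CG43185 was also higher in the ribosome IPs than in the control (log2 fold change 4.12 ± 0.49, adjusted p = 0.0216), a call lost without IP replicate 3 (0.0560) and in a fit of all 13 libraries (0.130). On the other side of CG9029, CR44577 stayed at or under 6.81 CPM in sorted cells. At that low level it was called lower in D1 against miP (-1.30 ± 0.32, adjusted p = 0.0287), a call kept in 7 of 16 alternatives. Against wild type it was not called (-0.99 ± 0.32, 0.0863).

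Samuel, which spans Acp32CD and CG14913 on the other strand, fell in D1 from a mean of 163 to 82.3 CPM (log2 fold change -1.64 ± 0.23, adjusted p = 0.00180). CG16772, which starts 326 nt beyond CG13965 on the opposite strand, fell from 514 to 277 CPM (-1.56 ± 0.22, adjusted p = 0.00179), and both calls held in all 17 alternatives. CG42866, 72 nt from CG13965, had a mean of 29.0 CPM in wild type and a log2 fold change of -1.35 ± 0.60 (adjusted p = 0.216). Beside mfas, CG3397 rose from a mean of 0.164 CPM to 5.87 in D1 (4.51 ± 0.64, adjusted p = 0.00172), a call that the fit of all 13 libraries lost (0.0522), while Tk, which encodes tachykinin neuropeptides, was at or under 0.762 CPM in sorted cells. The nearest other genes on each side of Acp32CD and CG14913, dUTPase outside Samuel and CG18666 inside it, were at most at 6.39 and 1.34 CPM in any sorted library.

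Likeness was measured as the root-mean-square difference of centred log2(CPM + 1) over the 13 libraries, among 974 genes with a mean of at least 100 CPM. CG9029 and CG13965 were each other's nearest gene, at 0.354 on this scale, where the median gene was 2.02 from CG9029 and 2.09 from CG13965. Next came lectin-46Ca (0.614) and Hsp23 (0.701) for CG9029, and lectin-46Ca (0.410) and Osi13 (0.520) for CG13965. Acp32CD was nearest to lectin-46Ca (0.334), CG17575 (0.341) and CG31121 (0.530), and mfas to CG7565 (0.233), CG31145 (0.288) and CG7460 (0.349). CG14913 had no close match: its nearest genes were mon2 (0.938), stv (0.958) and CG8925 (1.06), and Acp32CD, its neighbour on the chromosome, was at 1.19. The sorted and the IP libraries differ widely for all of these genes, and the points share those libraries and their depth, so these are descriptions.

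The genes at ranks 3, 4 and 5 in wild type, CG17575 (10.2% of counts), lectin-46Cb (8.56%) and lectin-46Ca (7.14%), belong to the Sex Peptide network, the proteins through which Sex Peptide binds to sperm stored in the female. Of 12 listed genes of that network 10 were tested in D1 against wild type, and 1 was called higher and 2 lower, with a median log2 fold change of -0.58. Over all genes tested 6.14% were called higher and 3.62% lower, with a median of 0.004. The 2 lower were lectin-46Ca (-1.16 ± 0.26, adjusted p = 0.0176) and lectin-46Cb (-1.17 ± 0.23, 0.00998), close to the -1.21 of Acp32CD, and without D1 replicate 1 they were at -1.44 and -1.35. Like that of Acp32CD, these calls held in a part of the 17 alternatives (10 for lectin-46Ca and 13 for lectin-46Cb) and ended when single libraries were left out: any but D1 replicate 1 for lectin-46Ca (adjusted p 0.0596 to 0.0766), and wild-type replicate 2 or 3 for lectin-46Cb (0.0530 and 0.0520). The 1 higher was hdly, with 0 counts in the wild-type libraries and 26, 25 and 26 in D1, which is at least 29.4-fold higher against a floor of 3 counts over the group, and its call ended when any library but D1 replicate 1 was left out (adjusted p 0.0625 to 0.0720). In the ribosome IPs against the control 3 of 12 were called higher, where 3.25% of all genes were: CG17575 (3.78 ± 0.70, adjusted p = 0.0378), lectin-46Ca (3.81 ± 0.68, 0.0356) and Esp (4.42 ± 0.75, 0.0317). Esp was near the floor, at 0.811 CPM in the control and 9.93 to 19.8 in the IPs. Its call ended with all 13 libraries in the fit (0.483) and with no scaling factors (0.0520). Without ribosome IP replicate 3 none of these 3 kept its call, in a fit where calls over all genes nearly vanished as well. In miP against wild type none of 10 was called.

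A second list held the route that carries secreted proteins into the endoplasmic reticulum (signal recognition particle, its receptor, translocon and signal peptidase). In D1 against wild type, of 18 listed genes 16 were found and 15 tested, and 3 were called higher and 0 lower, with a median log2 fold change of 0.53, beside 6.14% of all genes called higher, 3.62% called lower and a median of 0.004. They were Sec63, a partner of the translocon that recruits the chaperone BiP (1.11 ± 0.24, adjusted p = 0.0173), Srp9 of the signal recognition particle (1.03 ± 0.26, 0.0360) and Sec61alpha, the channel itself (0.80 ± 0.21, 0.0373). The list's summed share was 0.150 to 0.157% of counts in wild type, 0.153 to 0.167% in miP and 0.354 to 0.367% in D1, where all libraries were above those of both other genotypes. These shares are not scaled. With library totals alone, the median log2 fold change of all genes tested was 0.70 in D1 against wild type and 0.51 against miP. How many of all genes were higher in D1 without overlap was not counted. None of the 3 kept its call without D1 replicate 2 or without any one wild-type library (adjusted p 0.0665 to 0.187), and over the 17 alternatives 12, 11 and 9 kept the call of Sec63, Srp9 and Sec61alpha. Against miP 4 of 15 were called higher in D1, the same 3 and Sec61beta (1.82 ± 0.48, adjusted p = 0.0369), where 6.74% of all genes were. All 4 calls ended with only these 2 groups in the fit (adjusted p 0.104 to 0.134) and without any one miP library (0.0610 to 0.124), and Sec61beta was at 0.93 without D1 replicate 1 (0.0118). In miP against wild type and in the ribosome IPs against the control none of 15 was called.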

How the data were processed

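The authors aligned reads to dm6 with STAR and counted them per gene with HTSeq, per the submitters' processing notes; their versions and settings were not given in the sources used here. Deposited values are raw counts of single reads of 100 nt, from 2 ng of RNA amplified with poly(dT) priming and tagmented, per the labels' protocols. All columns of the table were assigned to the 13 samples from their labels. The authors' reads carry no molecular barcodes, so intervals and floors cover counting error only. No 2 libraries of a group agreed within sampling noise.

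CPM are counts scaled to 1e6 per library. Coordinates, exons and protein lengths were read from Ensembl release 115 (dm6), in which 16508 of 16727 symbols were placed (12512 directly, 3996 through a synonym) and 219 were not. Tests used edgeR 4.0.16 (quasi-likelihood, TMM scaling, default filter on low counts) in R 4.3.3 with Benjamini-Hochberg adjustment over all genes tested and a threshold of 0.05, on the 9 sorted libraries in 1 fit and the 4 IPs in another; the pipeline was checked on simulated counts. All 5 genes passed the filter in both fits. Alternatives were DESeq2 1.42.0, other scalings and filters, other sets of libraries, each replicate left out, and a replicate block. Tables were made with pandas 2.3.3 and scipy 1.17.1 in Python 3.11.15, and figures with matplotlib 3.10.9.

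The members and lists were chosen with earlier results of these data known. Besides the 5 genes and the secondary cell factors, those named are the nearest annotated gene on each side, genes that overlap a member, the 3 genes nearest to each in level over the libraries, the Sex Peptide network, up to 4 called genes of the signal peptide route and the top ranks in wild type. The length classes in which replicate 1 is described were set after seeing the data. Pairing by replicate number was checked with the correlation, over genes, of same-numbered libraries' deviations from their group means. For D1 and miP it was 0.443, 0.165 and 0.312, for D1 and wild type -0.228, -0.0325 and -0.229, and for miP and wild type -0.00321, 0.252 and -0.232. The same number gave the highest value only for numbers 1 and 3 of D1 and miP and for number 2 of miP and wild type. Replicate 1 stood apart in both mutants, so for D1 and miP the check cannot tell pairing from that shared difference. No sequences are printed.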

Additional observations from a re-analysis of the deposited data

How the results depend on the processing

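Of the 310 alternative values of the 20 log2 fold changes of single genes, 256 kept their direction and their side of the threshold, 20 passed it, 12 no longer did and 22 changed sign. In D1 against wild type 2 genes were called, 3 with DESeq2, 1 with only the 2 groups compared or with all 13 libraries, 4 without replicate 1 of both mutants, and 1 to 4 with each replicate left out in turn. In D1 against miP 2 were called, 2 with DESeq2, 1 with only the 2 groups or with all 13 libraries, 4 without replicate 1 of both mutants, and 1 to 4 with each replicate left out. In miP against wild type 0 were called, and 2 without replicate 1 of both mutants. In the ribosome IPs against the control 2 were called, 5 with DESeq2, 1 with all 13 libraries and 0 to 5 with each IP left out. Over all genes that DESeq2 fit called 975 higher and 151 lower of 12723. With CG9029 removed from the counts, the other 4 genes held 25.2% in wild type, 15.7% in D1, 25.1% in miP and 3.64% in the ribosome IPs, against 49.0, 34.4, 41.8 and 12.5% for the 5. With the replicate block the log2 fold change of CG13965 in D1 against wild type was -1.69 (adjusted p = 0.0235), a call gained. Between D1 and miP the block changed no call of the 5 genes. No called value changed sign. With no scaling factors, mfas was at 0.25 in D1 against wild type and 0.044 against miP, and CG9029 at 0.0029 in D1 against miP, where leaving out each replicate gave -1.44 to 0.28. In miP against wild type, near 0, Acp32CD was at -0.0085 with no filter, -0.0054 with all 13 libraries, -0.0042 with the replicate block, -0.013 without replicate 1 of both mutants and -0.066 to 0.10 with each replicate left out; CG14913 at 0.16 with no scaling and -0.18 to 0.018 with each replicate left out; and mfas at 0.012 with RLE factors or DESeq2, 0.21 with no scaling, 0.0074 without replicate 1 of both mutants and -0.077 to 0.0065 with each replicate left out. Calls over all genes ranged from 233 to 1449 higher and 116 to 1444 lower in D1 against wild type (505 and 298 in the fit reported), from 334 to 1032 and 126 to 732 in D1 against miP (554 and 313), from 0 to 361 and 0 to 632 in miP against wild type (2 and 5) and from 1 to 1433 and 0 to 481 in the ribosome IPs (414 and 34). The causes were not tested. The 25 counts of CG14913 in the control limit its ratios there.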
